A study of Homo sapiens with 3 samples.

Results

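Immediate early genes are transcribed within minutes of a stimulus without new protein synthesis, mostly through MAP kinase signalling to serum response factor, CREB and their partners. FOS and JUN family proteins pair through leucine zippers to form the transcription factor AP-1, while EGR1 and the KLF proteins bind GC-rich DNA through zinc fingers. In epithelial cells these genes are known to link growth factor and stress signals to proliferation, survival and differentiation. Their mRNAs are typically short-lived, and serum return after starvation is a classical inducer.

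The genes described here are FOS, FOSB, JUN, JUNB, JUND, EGR1, IER2, IER3, KLF6 and KLF4, chosen by symbol from a table of 16662 genes. Of these 10 genes, 9 were listed, and all 9 passed an expression filter of a mean of 1 CPM or more (normalised reads of a gene per library of equal size) that 13879 genes passed. FOSB was not among the listed genes and was not analysed here. RNA sequencing was carried out on H1975, an established EGFR-mutant human lung adenocarcinoma cell line. There was 1 library after transfection with siHHLA3-1, 1 with siHHLA3-3, which are differently numbered small interfering RNAs (siRNAs) against HHLA3, and 1 with the control siRNA siNC. All were transfected at about 70% confluency, kept for 6 h in medium without serum and harvested 24 h after the return of 10% serum, so the levels are not those of the first hour of serum stimulation. With 1 library per siRNA no test of one siRNA against another was made, and the labels give each library a batch of its own, which means that siRNA and batch cannot be told apart. Every interval below covers counting error only.

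The library totals were 35069930 reads for siHHLA3-1, 26950852 for siHHLA3-3 and 32813003 for siNC. HHLA3 itself had 55 counts (1.55 CPM) with siHHLA3-1, 20 counts (0.735 CPM) with siHHLA3-3 and 192 counts (5.99 CPM) with siNC. Of 8 lung epithelial markers 7 were listed, summing to 3402 CPM with siHHLA3-1, 2545 CPM with siHHLA3-3 and 3423 CPM with siNC, and SFTPB was not listed. Of 8 markers of leukocytes, fibroblasts and endothelium only the collagen gene COL1A1 was listed, at 24.5, 10.9 and 11.3 CPM in that order of libraries. The part of these marker differences in the results was not tested. In bulk RNA, fewer cells expressing a gene and less RNA per cell cannot be told apart.

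The upstream sequences of EGR1, JUND and FOS are shown because EGR1 and JUND differed most between the HHLA3 siRNAs, and FOS was below siNC with both. Each run is the 250 bases before the RefSeq start on GRCh38.p14, 5′ to 3′ on the gene's strand. Capitals mark the CArG box bound by serum response factor, the bases TGACG of a CREB site and the TATA box TATAAA, all searched on both strands.
EGR1: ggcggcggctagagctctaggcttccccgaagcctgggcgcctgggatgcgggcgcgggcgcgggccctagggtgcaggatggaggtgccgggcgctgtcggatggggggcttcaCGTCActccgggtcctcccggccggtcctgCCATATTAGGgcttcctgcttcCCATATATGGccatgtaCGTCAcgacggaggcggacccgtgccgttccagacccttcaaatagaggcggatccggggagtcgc
JUND: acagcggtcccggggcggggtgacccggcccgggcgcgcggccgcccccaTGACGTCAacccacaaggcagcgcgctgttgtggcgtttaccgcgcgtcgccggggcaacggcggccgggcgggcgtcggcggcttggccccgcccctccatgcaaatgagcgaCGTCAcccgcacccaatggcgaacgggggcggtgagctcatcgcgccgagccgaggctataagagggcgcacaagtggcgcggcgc
FOS: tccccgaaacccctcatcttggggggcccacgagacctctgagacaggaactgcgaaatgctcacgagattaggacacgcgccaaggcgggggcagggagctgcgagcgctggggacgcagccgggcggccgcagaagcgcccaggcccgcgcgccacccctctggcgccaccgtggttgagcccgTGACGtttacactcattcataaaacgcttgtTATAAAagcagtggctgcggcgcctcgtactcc
They lie at chr5:138465229-138465478 on the plus strand for EGR1, chr19:18281623-18281872 on the minus strand for JUND and chr14:75278578-75278827 on the plus strand for FOS. EGR1 carried 2 CArG boxes, beginning 105 and 83 bases before its start, against 1.16% of 35114 RefSeq promoters that held at least 1 in the same window. It was the only one of 8 listed members with a promoter entry to hold one there. JUND held the full CREB site TGACGTCA, 200 bases before its start, a match found in 1.65% of promoters and overlapping 2 of its 3 matches to TGACG. The shorter TGACG was found in 7 of the 8, KLF6 being the exception, and in 21.2% of all promoters. The EGR site GCGNGGGCG, searched on both strands, was found upstream of EGR1, KLF6 and KLF4 and in 8.41% of promoters. The AP-1 site TGANTCA was found in 0 of the 8 windows and in 6.57% of promoters, and variant spellings of that site were not counted. The GC content of the 8 windows ran from 62.0% for JUN to 74.8% for JUND. The shares over all promoters were not matched for GC content, so they may not be a like baseline. These are letter matches in a short window and say nothing of binding. Sequence further than 250 bases before a start was not searched, for FOS or any other member, so sites there would be missed. IER3 has no entry in that promoter table. In GENCODE release 29 on GRCh38 the 9 genes are protein coding. FOS lies on chromosome 14, JUN on 1, JUNB, JUND and IER2 on 19, EGR1 on 5, IER3 on 6, KLF6 on 10 and KLF4 on 9. The JUN family genes have 1 exon, EGR1, IER2 and IER3 have 2, FOS and KLF6 have 4 and KLF4 has 5.

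Levels can be compared between genes only per length, for which the deposited TPM (values scaled by gene length and library) were used. JUNB had the highest TPM in every library, at 484 with siHHLA3-1, 369 with siHHLA3-3 and 359 with siNC. JUND came second, at 322, 213 and 203 TPM in the same order of libraries. KLF6, JUN and KLF4 followed in that order in each library, from 130 TPM for KLF6 with siHHLA3-1 to 67.5 TPM for KLF4 with siNC. IER2 was above IER3 with siNC (56.9 and 48.5 TPM). With siHHLA3-1 (75.4 and 69.3 TPM) their counting intervals overlapped. With siHHLA3-3 IER3 (87.9 TPM) stood between KLF4 (95.8 TPM) and IER2 (82.8 TPM), and its interval overlapped those of both neighbours. EGR1 was eighth, at 29.6, 49.1 and 25.1 TPM with siHHLA3-1, siHHLA3-3 and siNC. FOS was last at 4.35, 4.78 and 5.39 TPM, so it lay above only 16.2%, 18.9% and 21.8% of the genes that passed the filter, where JUNB lay above 98.7%, 97.9% and 97.9%. No other neighbours in these orders had overlapping intervals.

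**Figure D1:**
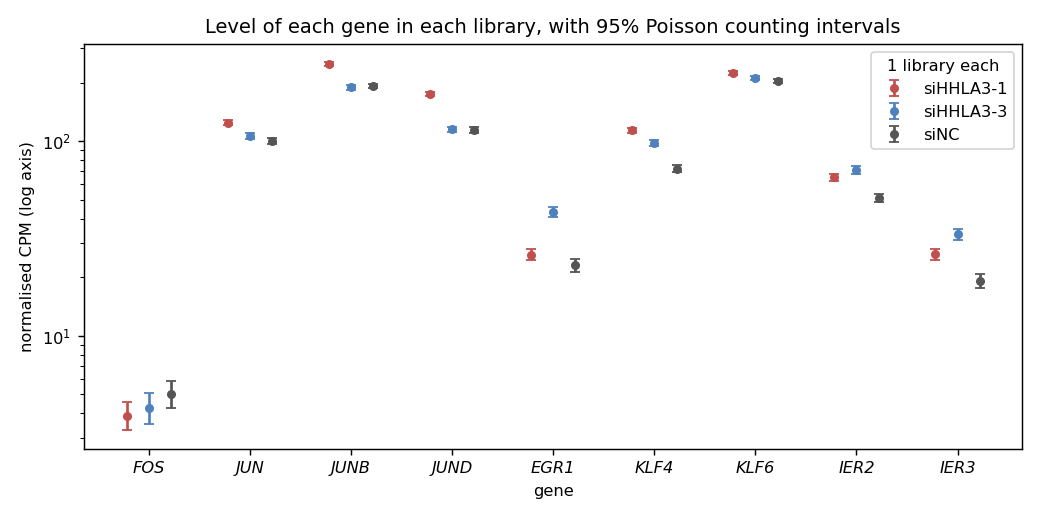
Normalised CPM (log axis) of the 9 listed genes in the siHHLA3-1, siHHLA3-3 and siNC libraries, 1 point per library with its 95% Poisson counting interval. The siNC point is the lowest of the 3 for JUN, EGR1, KLF4, KLF6, IER2 and IER3 and the highest for FOS, at 5.02 CPM, while for JUND it lies within counting error of the siHHLA3-3 point.

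In the siHHLA3-1 library 8 of the 9 genes were above siNC, led by KLF4 and JUND, and FOS was below it, where 48.2% of all genes were above. In the siHHLA3-3 library 7 of the 9 were above siNC, JUND and KLF6 by no more than counting error (48.5% of all genes were above), with EGR1 and IER3 furthest above it, IER2 and KLF4 next and the JUN family close to it. No gene was 2-fold apart in any comparison. On the log2(CPM + 1) scale the median ratio of the 9 genes was 0.34 with siHHLA3-1 over siNC, where the median of all 13879 genes was -0.01. It was 0.09 with siHHLA3-3 over siNC, again against -0.01 for all genes, and lay between 0.05 (GC content and length trend removed) and 0.26 (a filter of 5 CPM, which leaves out FOS) under the alternatives.

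Genes were counted at 2-fold or 1.5-fold on the log2(CPM + 1) scale. At 2-fold, 0 of the 9 genes were higher and 0 lower in the siHHLA3-1 library than in the siNC library, where 0.973% and 0.382% of all genes were. With siHHLA3-3 the numbers were again 0 and 0, where 0.807% and 1.48% of all genes were. With siHHLA3-3 over siHHLA3-1 they were 0 and 0, where 0.757% and 2.12% were. At this number of genes, a count of 0 lies near those background shares. At 1.5-fold, 2 genes were higher with siHHLA3-1 than with siNC (KLF4 and JUND; 5.03% of all genes) and 2 with siHHLA3-3 (EGR1 and IER3; 3.65%), and 0 were lower (3.34% and 5.57%). The 95% counting interval of the ratio lay above 1 for 8 genes and below 1 for 1 gene with siHHLA3-1, against 28.7% and 32.6% of all genes. With siHHLA3-3 it lay above 1 for 5 genes and below 1 for 0 genes, against 27.6% and 30.6%. These intervals hold no variation between cultures. They narrow as counts rise, so the share over genes of all levels is not a like baseline for the members.

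**Figure D2:**
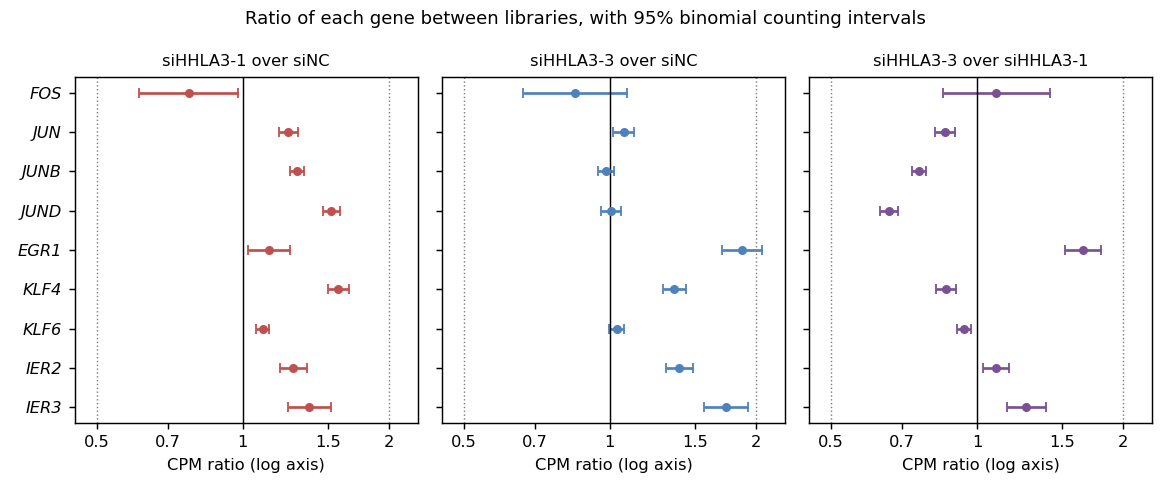
CPM ratio (log axis) of each listed gene for siHHLA3-1 over siNC, siHHLA3-3 over siNC and siHHLA3-3 over siHHLA3-1, with 95% binomial counting intervals; dotted lines mark 2-fold. JUND lies at 1.52-fold in the first panel and 1.00-fold in the second, and EGR1 at 1.13-fold and 1.87-fold.

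FOS, the founding FOS family member, had 138 counts (3.89 CPM) with siHHLA3-1, 116 counts (4.26 CPM) with siHHLA3-3 and 161 counts (5.02 CPM) with siNC. It was the one listed gene whose CPM was below siNC in both other libraries. It was 1.29-fold lower with siHHLA3-1 than with siNC (95% counting interval 1.02 to 1.63). With siHHLA3-3 its ratio to siNC was 0.849 (0.663 to 1.09), an interval that includes 1. The libraries of the HHLA3 siRNAs did not differ in FOS beyond counting error, with a ratio of 1.10 (0.849 to 1.41) for siHHLA3-3 over siHHLA3-1.

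JUN, the classical partner of FOS, had 124 CPM with siHHLA3-1, 107 CPM with siHHLA3-3 and 100.1 CPM with siNC. Its ratio to siNC was 1.24 for siHHLA3-1 (1.19 to 1.30) and 1.07 for siHHLA3-3 (1.01 to 1.12), both above 1 beyond counting error. JUNB, a JUN family member with weaker activating capacity, had 249 CPM with siHHLA3-1, 189 CPM with siHHLA3-3 and 192 CPM with siNC. It was 1.30-fold higher with siHHLA3-1 (1.25 to 1.34), and its ratio with siHHLA3-3 was 0.983 (0.947 to 1.02). That ratio came out above 1 when library totals alone, the deposited TPM or the deposited FPKM set the scale. These scales also raised the median of all genes. With a trend on GC content and length removed, the log2 ratio of JUNB with siHHLA3-3 came to -0.12, against -0.02. JUND, the JUN family gene known for steady expression in resting cells, had 174 CPM with siHHLA3-1, 115 CPM with siHHLA3-3 and 114 CPM with siNC. It was 1.52-fold higher with siHHLA3-1 (1.46 to 1.59), which placed it above 95.4% of all genes, and its ratio with siHHLA3-3 was 1.00 (0.957 to 1.05), a log2 ratio of 0.01 that came to -0.09 once a trend on GC content and length was removed.

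The JUN family was thus higher in the siHHLA3-1 library than in either other library. Directly between the HHLA3 siRNAs, JUND was 1.52-fold lower (1.45 to 1.59), JUNB 1.32-fold lower (1.27 to 1.36) and JUN 1.16-fold lower (1.11 to 1.22) with siHHLA3-3 than with siHHLA3-1. All 3 are single-exon genes, and their longest coding transcripts have a GC content of 69.7% for JUND, 64.9% for JUNB and 56.7% for JUN, which is above that of 99.5%, 95.4% and 72.5% of the coding genes tested. The 1183 coding genes richest in GC had a median log2 ratio of 0.06 with siHHLA3-1 and 0.06 with siHHLA3-3, and the 232 single-exon coding genes had medians of -0.03 and -0.05. With the trend on GC content and length removed, the log2 ratio of JUND with siHHLA3-1 was 0.53, against 0.60 without that step. That of JUNB was 0.30 against 0.37, and that of JUN 0.24 against 0.31. JUNB overlaps HOOK2 on the opposite strand in GENCODE release 29, and whether the counting used strand is not given in the sources used here; their reads may be mixed. HOOK2 had 87.4 CPM with siHHLA3-1, 72.7 CPM with siHHLA3-3 and 84.2 CPM with siNC.

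The listed FOS and JUN family genes were then set side by side in TPM, with FOSL1 and FOSL2 added after their values were seen. FOSL1, a FOS family gene induced by sustained MAP kinase signalling, had 257 TPM with siHHLA3-1, 658 TPM with siHHLA3-3 and 299 TPM with siNC. FOSL2, the other late FOS family gene, had 187, 155 and 170 TPM in that order. FOS itself supplied 0.316%, 0.318% and 0.477% of the summed TPM of the 6 genes, so nearly all listed FOS family mRNA was FOSL1 and FOSL2. The JUN family supplied 67.4% of the sum with siHHLA3-1, 45.7% with siHHLA3-3 and 58.0% with siNC. The summed JUN family TPM was 2.07 times that of the FOS family with siHHLA3-1, 0.840 times with siHHLA3-3 and 1.38 times with siNC. These are mRNA proportions and not amounts of protein or dimers.

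**Figure D3:**
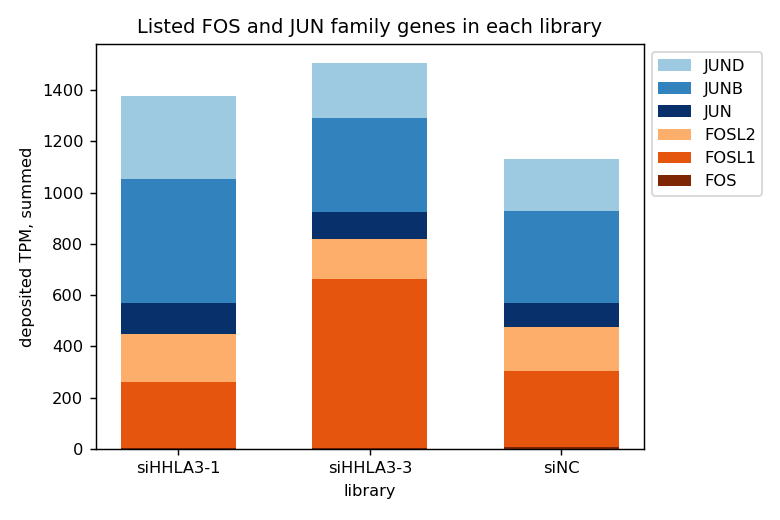
Deposited TPM of FOS, FOSL1, FOSL2, JUN, JUNB and JUND, stacked, in the siHHLA3-1, siHHLA3-3 and siNC libraries (no error is drawn for the sums). The FOSL1 segment is the tallest of its bar with siHHLA3-3, at 658 TPM, and JUNB is the tallest with siHHLA3-1 and siNC.

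EGR1, a zinc finger factor induced through ERK and serum response factor, had 926 counts (26.1 CPM) with siHHLA3-1, 1173 counts (43.1 CPM) with siHHLA3-3 and 738 counts (23.0 CPM) with siNC. The siHHLA3-3 library stood apart from both others. The EGR1 ratio to siNC was 1.13 for siHHLA3-1 (1.03 to 1.25), above 72.9% of all genes, and 1.87 for siHHLA3-3 (1.71 to 2.06), above 98.8%. Between the HHLA3 siRNAs it was 1.65-fold higher with siHHLA3-3 (1.51 to 1.80). Its paralogues were scarce. EGR2 had 1.58, 2.46 and 1.87 CPM, and EGR4 had 2.34, 2.94 and 1.84 CPM, with siHHLA3-1, siHHLA3-3 and siNC. The corepressor NAB2, itself an EGR1 target, had 60.2, 64.3 and 62.2 CPM, and its relative NAB1 14.3, 20.5 and 17.9 CPM. EGR2 and EGR4 averaged under 5 CPM and were added after their values were seen. Of the 4 listed genes of this group, 0 were 2-fold or 1.5-fold from siNC with either siRNA on the log2(CPM + 1) scale. Among all genes, 5.03% were 1.5-fold higher and 3.34% lower with siHHLA3-1, and 3.65% and 5.57% with siHHLA3-3. The plain CPM ratio of EGR4 with siHHLA3-3 was 1.6 (1.13 to 2.28).

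KLF4, a zinc finger factor of epithelial differentiation and pluripotency, had 4043 counts (114 CPM) with siHHLA3-1, 2672 counts (98.1 CPM) with siHHLA3-3 and 2318 counts (72.3 CPM) with siNC. Both other libraries were above siNC by more than counting error. The ratio to siNC was 1.58 for siHHLA3-1 (1.5 to 1.66) and 1.36 for siHHLA3-3 (1.28 to 1.44). KLF6, a widely expressed relative induced by injury, had 224, 210.4 and 204 CPM in the same order and was 1.10-fold higher with siHHLA3-1 (1.06 to 1.14). Its ratio with siHHLA3-3 was 1.03 (0.996 to 1.07). Of the 10 other listed KLF genes, 0 were 1.5-fold from siNC in either comparison on the log2(CPM + 1) scale. Among all genes, 5.03% were 1.5-fold higher and 3.34% lower with siHHLA3-1, and 3.65% and 5.57% with siHHLA3-3. The plain CPM ratio of KLF2 with siHHLA3-3 was 1.6 (1.29 to 1.99). The median log2 ratios of the 10 genes were 0.04 with siHHLA3-1 and 0.08 with siHHLA3-3. KLF7 had a log2 ratio of 0.57 with siHHLA3-1 and 0.23 with siHHLA3-3, KLF9 of 0.52 and 0.01, KLF2 of 0.01 and 0.58, and KLF11 of -0.24 and -0.09.

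IER3, a stress-inducible regulator of cell survival, had 933 counts (26.3 CPM) with siHHLA3-1, 904 counts (33.2 CPM) with siHHLA3-3 and 614 counts (19.1 CPM) with siNC. Its ratio to siNC was 1.37 for siHHLA3-1 (1.24 to 1.52) and 1.73 for siHHLA3-3 (1.56 to 1.92). Between the HHLA3 siRNAs, IER3 was 1.26-fold higher in the siHHLA3-3 library (1.15 to 1.39). IER2, a nuclear protein of the early serum response, had 65.2 CPM with siHHLA3-1, 71.3 CPM with siHHLA3-3 and 51.2 CPM with siNC. Its ratio to siNC was 1.27 for siHHLA3-1 (1.19 to 1.36) and 1.39 for siHHLA3-3 (1.30 to 1.49). Both genes overlap an antisense gene in GENCODE release 29 that the table does not list, so reads of the opposite strand may be included.

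Directly between siHHLA3-3 and siHHLA3-1, which leaves out siNC, the counting interval lay above 1 for 3 genes (EGR1, IER3 and IER2) and below 1 for 5 (JUND, JUNB, JUN, KLF4 and KLF6), where 31.6% and 31.1% of all genes were so placed. The median log2 ratio was -0.09 (-0.15 under the 5 CPM filter), against 0.00 for all genes, with a range from -0.60 for JUND to 0.70 for EGR1. At 1.5-fold, EGR1 was higher and JUND lower, as were 4.4% and 7.82% of all genes. Of the 9 genes, 4 were above 0, as were 50.4% of all genes, and a count of 4 lies near that share.

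**Figure D4:**
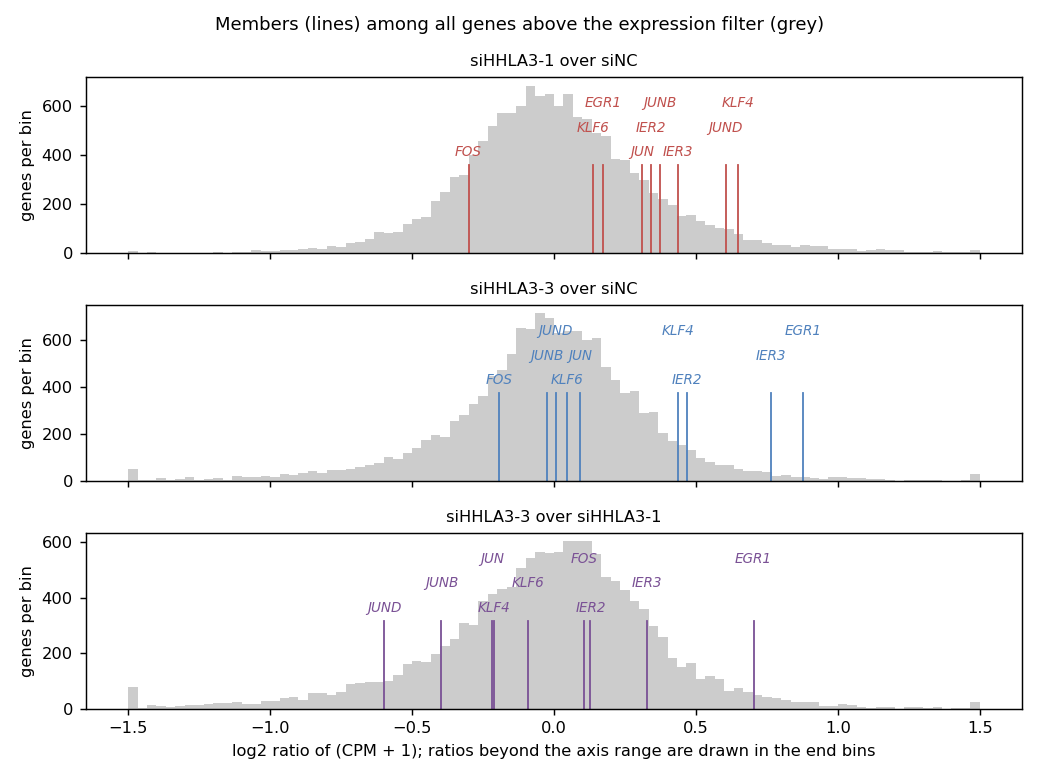
Histograms of the log2 ratio of (CPM + 1) over the 13879 genes that passed the filter (grey, genes per bin), with the listed members as lines, for siHHLA3-1 over siNC, siHHLA3-3 over siNC and siHHLA3-3 over siHHLA3-1. FOS lies left of 0 in the first and second panels, at -0.30 and -0.19, and the JUN family lies right of 0 in the first panel and left of 0 in the third.

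The mRNA end was examined because immediate early mRNAs are known to be degraded through AU-rich elements, bound in the 3′ untranslated region (UTR) by proteins such as ZFP36. In the longest GENCODE 3′ UTR of each gene, the pentamer ATTTA was found in 8 of the 9 genes, IER2 being the exception, and in 72.4% of 11786 genes searched. Per kilobase of UTR the density was 6.64 for IER3, 6.20 for FOS and 4.0 for JUNB, against a median of 1.62 over all genes, and 6 of the 9 were above that median. The 30 bases that hold the densest cluster in FOS and IER3 are shown with the pentamers in capitals, since these genes had the highest densities and stood on opposite sides of siNC.
FOS: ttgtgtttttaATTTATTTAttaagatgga
IER3: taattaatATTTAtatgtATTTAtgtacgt
EGR1 had 1 pentamer (0.81 per kilobase) and JUND 1 (1.47 per kilobase), both below that median.

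The 7-base sequence most associated with lower ratios in 3′ UTRs was CAGAATG for siHHLA3-1 and GTGAACT for siHHLA3-3, among 10492 genes averaging 5 CPM or more. Both were chosen on these same ratios, so carriage is given as a description. EGR1 and KLF6 carried CAGAATG, as did 17.5% of the genes, and both were above siNC with siHHLA3-1. Of the 9 listed members, 0 carried GTGAACT, which 11.9% of the genes did. At this number of genes, both counts lie near those shares, and FOS averaged under 5 CPM and is outside that baseline. FOSL1 carried neither. Among other genes named in the text, KHSRP, GSK3B and IVL carried GTGAACT and were below siNC with siHHLA3-3. KLF7 carried it and was above siNC, while ELK3 and MAP2K2 lacked it and were below. Any part of these sequences in the differences was not tested.

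Genes around the pathway were read from lists of related genes. Among all genes, 0.973% were 2-fold above siNC and 0.382% 2-fold below it with siHHLA3-1. With siHHLA3-3 these shares were 0.807% and 1.48%. Of 12 listed other AP-1 genes with a basic leucine zipper, 1 reached 2-fold above siNC in the siHHLA3-1 library and 4 in the siHHLA3-3 library, and 0 reached 2-fold below it in either. Their median log2 ratios were 0.37 and 0.50. BATF2, a factor of the interferon response, had 66.2, 55.4 and 26.1 CPM with siHHLA3-1, siHHLA3-3 and siNC. The stress-induced ATF3 had 25.5, 37.5 and 15.3 CPM, and MAFF, a small MAF protein, 33.5, 51.2 and 24.1 CPM. MAFK had log2 ratios of 0.60 and 0.47. FOSL1 lay below siNC in the siHHLA3-1 library, by 1.21-fold (1.17 to 1.26), and above it in the siHHLA3-3 library, by 2.10-fold (2.03 to 2.18).

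Of 22 listed other immediate early genes, 1 reached 2-fold above siNC in the siHHLA3-1 library (0.973% of all genes). In the siHHLA3-3 library 2 did, ATF3 and CCN1 (0.807% of all genes). In both libraries 0 of the 22 reached 2-fold below siNC (0.382% and 1.48% of all genes). The medians of the 22 genes were 0.10 and 0.13. The antiproliferative BTG2 had 16.3, 13.3 and 6.70 CPM with siHHLA3-1, siHHLA3-3 and siNC. The matricellular gene CCN1 had 104, 135 and 66.7 CPM. The log2 ratio to siNC of the kinase gene SGK1 was 0.51 for siHHLA3-1 and 0.56 for siHHLA3-3.

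Upstream of these genes, 0 of 13 serum response and CREB factors were 2-fold higher with either siRNA, and ELK3 was 2-fold lower with siHHLA3-3. Among all genes, 0.973% were 2-fold higher with siHHLA3-1 and 0.807% with siHHLA3-3, and 1.48% were 2-fold lower with siHHLA3-3. The median log2 ratios of the 13 factors were 0.09 with siHHLA3-1 and -0.22 with siHHLA3-3, against -0.01 for all genes in each comparison. ELK3, an ETS partner of serum response factor, had 65.0, 26.3 and 65.1 CPM with siHHLA3-1, siHHLA3-3 and siNC. The serum response factor gene SRF, added after its values were seen, had 74.3, 62.4 and 71.3 CPM in the same order. ATF1 had log2 ratios of -0.24 and 0.42, MEF2D of 0.26 and 0.12, and the serum response coactivator MRTFA of 0.22 and -0.42. Of 14 upstream kinases, 0 were 1.5-fold from siNC with either siRNA. Among all genes, 5.03% were 1.5-fold higher and 3.34% lower with siHHLA3-1, and 3.65% and 5.57% with siHHLA3-3. The furthest kinases were MAPK9 at -0.23 and -0.55 and MAP2K2 at 0.07 and -0.53. GSK3B had log2 ratios of 0.11 and -0.50 and BRAF of 0.06 and 0.33.

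Of 15 genes that bind or degrade AU-rich mRNAs, 0 were 2-fold from siNC with either siRNA. Their medians were -0.06 with siHHLA3-1 and -0.16 with siHHLA3-3. Among all genes, 0.973% were 2-fold higher and 0.382% lower with siHHLA3-1, and 0.807% and 1.48% with siHHLA3-3. The decay factor KHSRP was 1.22-fold lower with siHHLA3-1 (1.19 to 1.25) and 1.65-fold lower with siHHLA3-3 (1.61 to 1.70). The exonuclease gene XRN1 had log2 ratios of 0.94 and 0.18, ELAVL1 of -0.30 and -0.45, and EXOSC3 of -0.30 and -0.34.

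Of 14 listed genes known as AP-1 targets, 1 reached 2-fold above siNC with each siRNA (IVL with siHHLA3-1 and SPHK1 with siHHLA3-3). IVL was 2-fold lower with siHHLA3-3. Among all genes, 0.973% were 2-fold above siNC with siHHLA3-1 and 0.807% with siHHLA3-3, and 1.48% were 2-fold lower with siHHLA3-3. The medians of the 14 genes were 0.20 and 0.30. SPHK1, a sphingosine kinase, had 51.1, 94.7 and 33.8 CPM with siHHLA3-1, siHHLA3-3 and siNC, and the urokinase receptor PLAUR 215, 180 and 145 CPM. CXCL8 had log2 ratios of 0.61 and 0.45, and the collagenase MMP1 of -0.88 and -0.10. MMP1 is not in the 2-fold counts, but its CPM, 3.04 with siHHLA3-1 and 6.45 with siNC, was 2.12-fold lower as a plain ratio (1.67 to 2.70). IVL, an epidermal differentiation gene added here after its values were seen, had 44.8, 5.18 and 19.5 CPM.

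**Figure D5:**
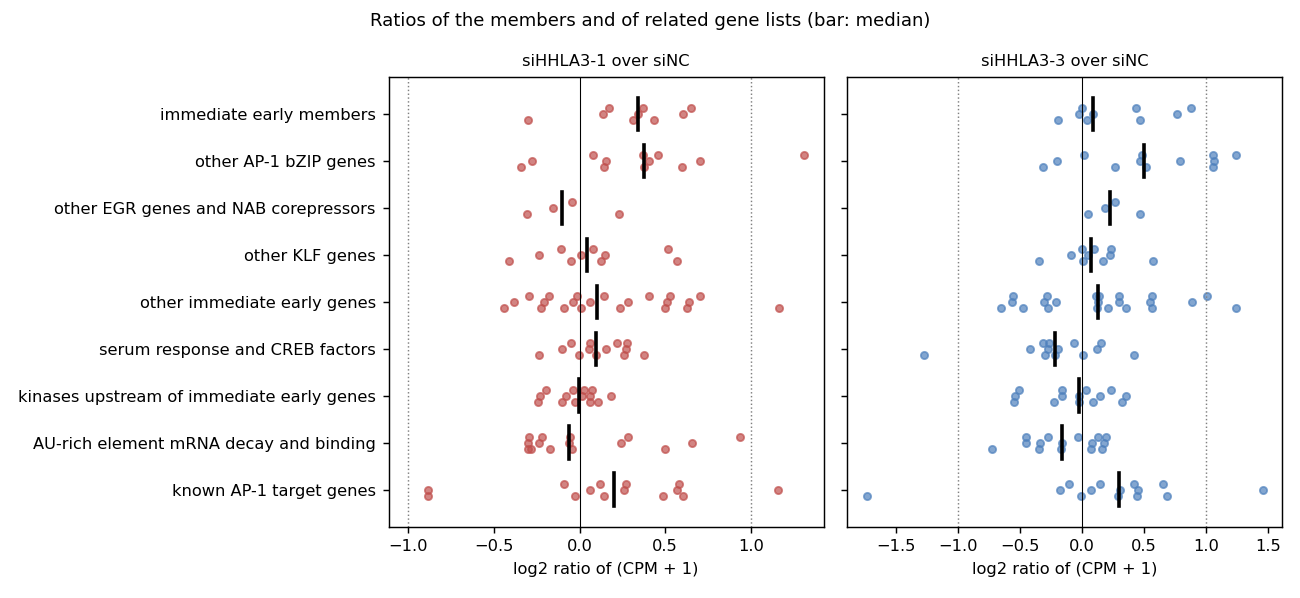
Log2 ratio of (CPM + 1) over siNC for the 9 listed members and for each related list, 1 point per gene that passed the filter and a bar at the median, for siHHLA3-1 (left) and siHHLA3-3 (right); dotted lines mark 2-fold. The members' median is 0.34 on the left and 0.09 on the right, and that of the other AP-1 genes 0.37 and 0.50.

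For the member furthest from siNC in each comparison, the genes nearest in their pair of log2 ratios were looked up among the 11217 genes that averaged 5 CPM or more. For KLF4, 51 genes lay within a distance of 0.1 over these 3 libraries, and the nearest with a usual symbol was GTPBP1 at 0.027. For EGR1, 10 genes lay within 0.1, and the nearest with a usual symbol were AARS1 at 0.022, MIR100HG at 0.047 and ANKRD13B at 0.061. AARS1, the alanyl-tRNA synthetase gene, had 383, 629 and 344 CPM with siHHLA3-1, siHHLA3-3 and siNC. With 3 libraries such nearness is a description of these samples alone.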

How the data were processed

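The authors deposited 1 table with 4 values per gene and library. The deposited counts are whole reads per gene without normalisation. The deposited CPM are counts scaled to a common library total, and the deposited TPM and FPKM are also divided by gene length, per the file headers. Summed over the 3 libraries, the smallest FPKM of a listed gene was 1.00. Whether FOSB and other unlisted genes fell below such a cut was not tested. Per the submitters' processing notes, the build was hg19 and Bowtie2, TopHat2, HISAT and HISAT2 were among the tools; the counting program, annotation and use of strand are not given in the sources used here.

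Library totals were recovered from the authors' counts and CPM. Counts were scaled with TMM factors (1.01 for siHHLA3-1, 1.01 for siHHLA3-3 and 0.978 for siNC) from edgeR 4.0.16 in R 4.3.3. Ratios are log2 of (CPM + 1) over (CPM + 1), which understates differences of low genes; folds are CPM ratios without the added 1. Level intervals are exact 95% Poisson and ratio intervals exact 95% binomial (Clopper-Pearson) intervals; reads without molecular identifiers are not independent molecules. A gene was counted at 2-fold on the log2(CPM + 1) scale, with 1.5-fold as an alternative, and no p-value was computed between single libraries. The members and lists were chosen with earlier results of these data known. The text names all members, up to 4 genes per list by mean ratio averaging 5 CPM or more, and genes said to be added.

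Promoters are RefSeq sequences (GRCh38.p14) matched by symbol. Transcripts, overlaps and UTRs are from GENCODE release 29 (GRCh38), not the submitters' build, and carry no value. Python 3.11.15, numpy 2.4.6, scipy 1.17.1, pandas 2.3.3 and matplotlib 3.10.9 were used. The 2-fold call and the binomial intervals were tested on simulated Poisson counts, scaled by library totals and without variation between cultures. TMM scaling and the sequence searches were not part of that simulation. Alternatives were DESeq2 1.42.0 size factors, library totals, the deposited TPM and FPKM, 0.1 as pseudocount, omission of the filter or a minimum mean of 5 CPM, both siHHLA3 libraries as 2 samples against siNC and, added after seeing the data, removal of a GC content and length trend.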

Additional observations from a re-analysis of the deposited data

How the results depend on the processing

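Over 213 recomputed member ratios, 4 had another sign than reported, all for JUNB or JUND with siHHLA3-3 over siNC. JUNB came to 0.02 with library totals alone, 0.04 with the deposited TPM and 0.02 with the deposited FPKM, against -0.02 as reported. On these scales the median of all genes in that comparison came to 0.03, 0.05 and 0.03, against -0.01. JUNB stayed below that median each time. JUND came to -0.09 with the GC content and length trend removed, against 0.01. The members' median with siHHLA3-1 over siNC was 0.27 with that trend removed, against 0.34, and with siHHLA3-3 over siNC 0.26 with a mean of at least 5 CPM, against 0.09, since that filter leaves out FOS. The other alternatives moved each comparison's median by no more than the median half-width of the single members' counting intervals, on the log2 scale. At 1.5-fold the count of higher members was 2 with siHHLA3-1, 2 with siHHLA3-3 and 1 with siHHLA3-3 over siHHLA3-1, and of lower members 1 in the last, against 0 at 2-fold; every other setting gave 0.

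With both siHHLA3 libraries taken as 2 samples against siNC, edgeR's quasi-likelihood test called 0 of the 9 genes (adjusted p = 1.00 for each; 0 at an unadjusted p under 0.05; 1 gene called of 13879) and DESeq2 0 (adjusted p = 1.00; 0 unadjusted; 5 called). There is 1 residual degree of freedom, and the fit assumes that the lone siNC library varies like the others. No paired analysis was possible because each group has 1 library, which also leaves no replicate to omit. FOS, with 116 to 161 counts, has the widest intervals.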
